A study of Mus musculus with 16 samples.

Results

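DNA methylation was described at 7 genes that encode parts of the B cell antigen receptor and surface proteins that act with it: *Cd79a*, *Cd79b*, *Ms4a1*, *Cd22*, *Cr2*, *Fcer2a* and *Cd72*. They were taken by name from the 21755 protein-coding genes of the GENCODE vM21 annotation on chromosomes 1 to 19 and X, and all 7 were found and measured. The study profiled B and T cells sorted from the spleens of C57BL/6J mice aged 6 to 8 weeks by whole genome bisulphite sequencing (WGBS), in 8 libraries of each cell type. B cells were sorted by magnetic beads as CD43- resting B cells and T cells as naive CD4+ CD62L+ cells. Each cell type had 4 libraries from male and 4 from female mice, and every combination of sex and cell type had 2 standard bisulphite (BS) libraries, a treatment that reads 5-methylcytosine and 5-hydroxymethylcytosine alike, and 2 oxidative bisulphite (oxBS) libraries, which read 5-methylcytosine alone. All groups came from the same unmodified strain, the mice were pooled, and no library is tied to a mouse. A part of each DNA sample was oxidised, so a BS and an oxBS library can come from the same sample. The labels do not say which libraries do. The p-values therefore measure the spread between libraries, and n counts libraries, not independent samples.

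The B cell receptor is a membrane immunoglobulin held by the heterodimer of CD79A and CD79B, whose cytoplasmic tails carry the activation motifs that start signalling when antigen binds. Co-receptors tune that signal: CR2 (CD21) strengthens the response to antigen that is coated with complement, whereas CD22 and CD72 bear inhibitory motifs that recruit phosphatases. MS4A1 (CD20) is a membrane-spanning protein of B cells and the target of depleting antibodies, and FCER2A (CD23) is the low-affinity receptor for IgE. CpG methylation at a promoter is commonly associated with a silent gene, and the promoters of genes used by one blood lineage are often methylated in another.

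Depth was moderate and somewhat lower in B cells, with a median of 6.89 calls per CpG against 7.55 in T cells. The mean number of calls per CpG ran from 5.78 to 7.99 over B cell libraries and from 7.22 to 7.94 over T cell libraries, so calls were pooled over regions, and a methylation level is the percentage of pooled calls that were methylated. The labels were compared with markers of each cell type, in promoter windows of 1 kb on either side of the transcription start site (TSS, the 5′ end of the gene record). A window was called where B and T cells differed by at least 20 points at a Benjamini-Hochberg adjusted p under 0.05 in a quasi-binomial model with sex and assay as covariates. The promoter of *Blnk*, an adaptor of B cell receptor signalling and a B cell marker, had a level of 12.5% ± 3.69 (SD, n = 8) in B and 58% ± 5.25 (SD, n = 8) in T cells, and that of *Cd3e*, a T cell marker, 86.5% ± 1.5 and 2.63% ± 1.34. Of 4 B cell markers, 1 was called lower in B cells, and of 5 T cell markers, 4 were called higher in B cells, as were *Cd4* and both CD8 genes, while none of 5 myeloid, 2 NK cell and 3 erythroid markers was called in either direction. The mean over the 5 T cell markers was between 62.6% and 68.1% in B cell libraries and between 4.04% and 10.7% in T cell libraries. At a single CpG in sorted bulk DNA, a level between 0 and 100% can come from a share of the cells or of the alleles in each cell. These cannot be told apart. A level pooled over a window also mixes CpGs that can differ in level, and single CpGs are described below.

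The promoters of the 7 genes held fewer CpGs than the median promoter. Within 1 kb of the TSS they held between 12 (*Fcer2a*) and 45 (*Cd79a*) CpGs with a median of 23, against a median of 62 over all protein-coding genes. Of all promoters, 40.3% held fewer CpGs than that of *Cd79a*, 39.1% fewer than that of *Cd72* and 12.5% fewer than that of *Fcer2a*. The median ratio of observed to expected CpGs was 0.215 in the 7 genes and 0.478 over all genes. The bases directly upstream of 3 of the TSSs are given below from the GRCm38.p6 (mm10) reference, 5′ to 3′ on the strand of the gene, with CpGs in capitals. *Cd79a* and *Fcer2a* are shown because their few upstream CpGs differed between the cell types, and *Cr2* because its denser CpGs were unmethylated in both.
Cd79a: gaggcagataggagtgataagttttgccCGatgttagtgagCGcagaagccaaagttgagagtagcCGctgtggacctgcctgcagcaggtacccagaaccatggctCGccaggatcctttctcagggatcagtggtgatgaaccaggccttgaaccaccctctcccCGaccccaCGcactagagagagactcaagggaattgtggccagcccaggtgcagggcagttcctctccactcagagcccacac
Fcer2a: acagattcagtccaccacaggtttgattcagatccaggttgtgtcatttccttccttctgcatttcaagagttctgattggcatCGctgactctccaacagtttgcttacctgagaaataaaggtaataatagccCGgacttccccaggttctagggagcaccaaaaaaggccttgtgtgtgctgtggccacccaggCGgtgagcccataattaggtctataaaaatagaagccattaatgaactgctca
Cr2: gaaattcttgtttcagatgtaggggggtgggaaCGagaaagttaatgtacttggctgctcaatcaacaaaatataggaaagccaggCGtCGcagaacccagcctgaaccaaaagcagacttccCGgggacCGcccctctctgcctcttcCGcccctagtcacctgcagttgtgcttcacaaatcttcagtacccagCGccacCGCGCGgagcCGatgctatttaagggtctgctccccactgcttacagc

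These stretches of 250 bases lie at chr7:24897131-24897380 on the plus strand (*Cd79a*), chr8:3694176-3694425 on the minus strand (*Fcer2a*) and chr1:195176717-195176966 on the minus strand (*Cr2*). None overlaps an annotated exon of its own gene. The 6 CpGs of the *Cd79a* stretch were at 6.25% or less in B cells, and in T cells they ranged from 54.5% to 96.1%. At the 3 CpGs of the *Fcer2a* stretch, 166, 115 and 53 bases before the TSS, levels were 3.77%, 5.66% and 12% in B cells and 60%, 46.8% and 96.4% in T cells. The 11 CpGs of the *Cr2* stretch had levels between 0 and 2.04% in both cell types. These single-CpG levels pool the calls of 8 libraries and were not tested.

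Short sequence motifs named for factors of lymphoid cells were searched on both strands in the same 250 bases of every protein-coding gene, and are given for 6 of the 7 genes, without *Ms4a1*. The E-box CAGGTG was found in *Cd79a*, *Cd22* and *Cr2* and in 17.6% of all promoters, and the E-box CAGCTG in *Cd79b* and in 12.1%. AGGAAG (ETS) was found in *Fcer2a* and *Cd72* and in 29.1% of all promoters, TGTGGT (RUNX) in *Cd79b* and *Fcer2a* and in 13%, and TGGGAA (Ikaros) in *Cr2* and in 22.2%. CCCNNGGG (EBF1) and the octamer ATGCAAAT were found in none of the 6, and in 13.8% and 1.46% of all promoters. No 2 of these matches overlapped, and a match describes letters in a short window only.

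The first comparison asked whether promoter methylation, pooled over the TSS ± 1 kb, differed between B and T cells. It was lower in B cells at 5 of the 7 genes, *Cd79a*, *Cd79b*, *Ms4a1*, *Cd22* and *Fcer2a*. Over all 20905 promoters tested, 0.402% were called lower in B cells, and 0.694% were called higher, among them none of the 7 genes. By adjusted p alone, all 7 were lower in B cells, against 2.89% of all promoters, but with 4 libraries against 4, within a sex or an assay alone, only *Cd79a* and *Ms4a1* passed each time. *Cd79b*, *Cd22* and *Cd72* did not pass in 3 of these 4 fits, *Fcer2a* in 2 and *Cr2* in all 4. *Cr2* also had an adjusted p of 0.0521 without library 1 and of 0.136 when libraries of consecutive numbers, a BS and an oxBS library of the same sex and cell type, were summed as 1 sample. At 6 of the 7, every B cell library lay below every T cell library, which held for 1.26% of all promoters, the exception being *Cr2*. The median level of the 7 promoters was 11.9% in B and 66.2% in T cells, whereas over all promoters it was 14.8% and 13.7%. The median difference, B minus T cells, was −36.7 points in the 7 genes and 0.522 points over all promoters.

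**Figure D1:**
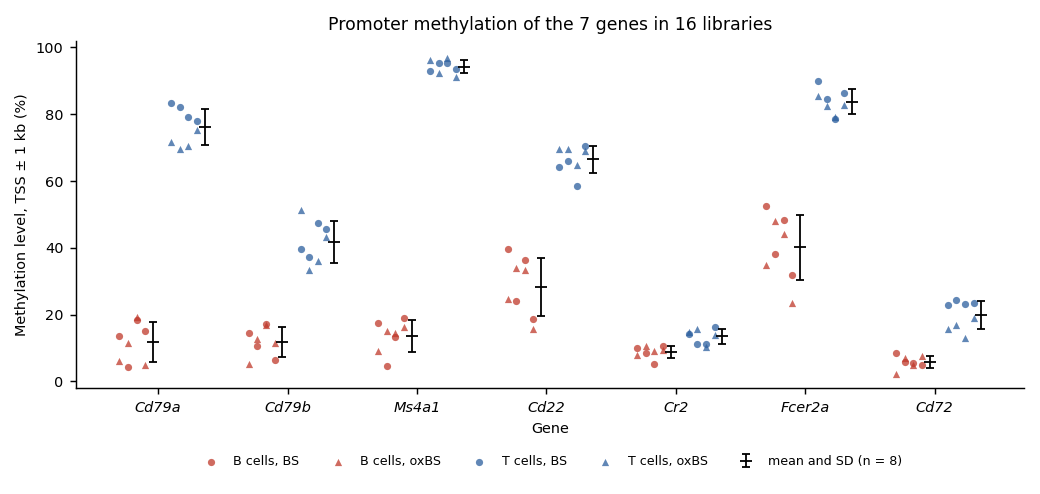
Promoter methylation level (percentage of pooled calls within 1 kb of the TSS, vertical axis) of each gene (horizontal axis) in every library, with circles for BS and triangles for oxBS libraries, red for B and blue for T cells, and a black bar for the mean and SD of 8 libraries. The 2 clouds are apart in 6 genes and touch in *Cr2*, where the highest B cell library was at 10.7% and the lowest T cell library at 10.3%.

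The signalling chains came first. *Cd79a* (chr7:24897381-24902197, plus strand) encodes the alpha chain of the receptor heterodimer. Its promoter level had a lowest value of 4.31%, a median of 12.5% and a highest value of 19.2% in B cell libraries, and 69.7%, 76.6% and 83.3% in T cell libraries. The groups did not overlap. The difference of pooled calls was −64.5 points (adjusted p = 5.81e-08), the 5th lowest of all promoters. *Cd79b* (chr11:106311341-106314762, minus strand) encodes the beta chain. Its level was between 5.22% and 17.1% in B cells, with a median of 12.1%, and between 33.5% and 51.4% in T cells, with a median of 41.4%. T cells were thus at an intermediate level at *Cd79b* and at a high level at *Cd79a*, while B cells had a mean of 11.9% ± 4.42 at the former and 11.7% ± 5.98 at the latter (SD, n = 8). The difference at *Cd79b* was −29.8 points (adjusted p = 2.88e-05).

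*Ms4a1* (chr19:11249675-11266241, minus strand), which encodes CD20, had the lowest B minus T difference of all 20905 promoters, at −80.4 points (adjusted p = 1.66e-09). Its B cell libraries were between 4.65% and 19%, with a median of 14.7%, and its T cell libraries between 91.2% and 96.9%, with a median of 94.4%. The T cell libraries were close together, with a mean of 94.2% ± 1.97 (SD, n = 8). The difference rested on 14 CpGs, with between 69 and 143 calls per library.

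Of the inhibitory co-receptors, *Cd22* was called and *Cd72* was not. CD22 binds sialic acids and dampens receptor signalling. The *Cd22* promoter (gene at chr7:30865402-30880342, minus strand) had levels between 15.6% and 39.5% in B cells, with a median of 29.1%, and between 58.5% and 70.4% in T cells, with a median of 67.5%. The B cell libraries covered a wider range than the T cell libraries, and the groups did not overlap. The difference was −36.7 points (adjusted p = 3.63e-05), and it was −19.7 points, under the limit, within 500 bases of the TSS. Another transcript of *Cd22*, its longest principal one, starts over 1 kb downstream of the start of the gene record, in a tile described below. CD72 is a C-type lectin-like receptor. The *Cd72* promoter (gene at chr4:43446462-43454628, minus strand) was between 2.29% and 8.46% in B cells, with a median of 5.63%, and between 13.1% and 24.3% in T cells, with a median of 21.0%. Its groups did not overlap and its adjusted p was 1.77e-05, but the difference of −14.0 points was under the limit of 20.

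The receptors for IgE and for complement are *Fcer2a* and *Cr2*. *Fcer2a* (chr8:3681737-3694175, minus strand), which encodes CD23, was the most methylated of the 7 promoters in B cells, with levels between 23.5% and 52.4% and a median of 41.2%. Its T cell libraries were between 78.6% and 89.9%, with a median of 83.8%. The groups were apart, and the difference was −43.6 points (adjusted p = 4.61e-06). *Cr2* (chr1:195136811-195176716, minus strand), which encodes the complement receptors CD21 and CD35, was low in both cell types. Its levels were between 5.34% and 10.7% in B cells, with a median of 9.18%, and between 10.3% and 16.3% in T cells, with a median of 14.1%. The groups overlapped, and the difference of −4.66 points had an adjusted p of 0.0186. Over the alternative settings this difference ran from −8.96 to −4.11 points. Two-sided exact permutation tests of the difference in means, 8 against 8 libraries, gave p = 0.000466 for *Cr2* and p = 0.000155, the smallest value possible, for each of the other 6 genes. These permutations treat every library as independent, which does not hold where a BS and an oxBS library share DNA. With libraries of consecutive numbers summed, *Cr2* did not pass by adjusted p, as given above.

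Among B cells, the order of the 7 levels ran from *Cd72* (5.83% ± 1.92) through *Cr2* (8.9% ± 1.75), *Cd79a*, *Cd79b*, *Ms4a1* (13.6% ± 4.7) and *Cd22* (28.3% ± 8.73) to *Fcer2a* (40.2% ± 9.77; SD, n = 8). Each neighbouring pair in that order had overlapping libraries. In T cells the order was *Cr2* (13.5% ± 2.27), *Cd72* (19.8% ± 4.23), *Cd79b* (41.7% ± 6.18), *Cd22* (66.5% ± 4.01), *Cd79a* (76.2% ± 5.32), *Fcer2a* (83.7% ± 3.77) and *Ms4a1* (94.2% ± 1.97). Libraries overlapped between *Cr2* and *Cd72*, between *Cd22* and *Cd79a* and between *Cd79a* and *Fcer2a*, and the other neighbours were apart. The mean over the 7 promoters differed between B cell libraries. It was 20.7% in library 1 and 20.3% in library 2, 12.7% in library 3 and 15.3% in library 4 (all male), and 19.8% in library 9, 22.3% in library 10, 12.9% in library 11 and 13.7% in library 12 (all female). Libraries 1, 4, 10 and 12 were BS and the others oxBS libraries. The mean over the 4 B cell markers was 5.5% in library 1, 7.67% in library 2, 4.94% in library 3, 5.12% in library 4, 7.87% in library 9, 7.08% in library 10, 4.53% in library 11 and 4.06% in library 12. Libraries 1, 2, 9 and 10 were thus above the other 4 in both means, and the part of the source of the DNA in this was not tested. T cell libraries had a mean over the 7 promoters between 52.9% and 59.1%.

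**Figure D2:**
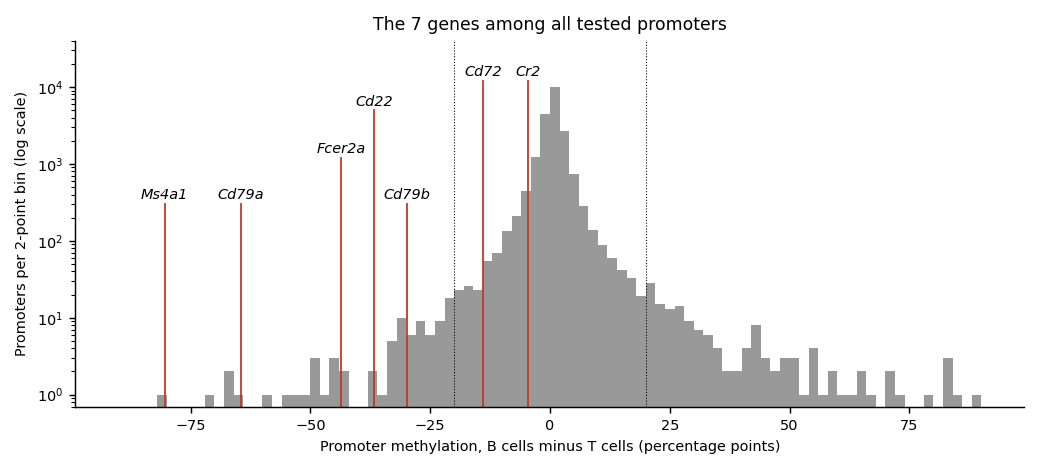
Number of promoters (vertical axis, log scale) by difference in methylation level, B minus T cells in percentage points (horizontal axis, bins of 2 points), over all 20905 promoters tested, with red lines at the 7 genes and dotted lines at the limit of 20 points. All 7 lie on the side of lower levels in B cells, *Ms4a1* at −80.4 points being the outermost and *Cr2* at −4.66 points the nearest to 0.

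Single CpGs within 1 kb of the TSS were then described with their calls pooled per cell type. Of 184 CpGs in the 7 windows, 136 had a pooled level of at most 20% in B cells and 55 in T cells, while in T cells 79 were at 80% or more, against 10 in B cells. The level was higher in T cells by at least 20 points at 109 CpGs and by at least 50 points at 59, and at no CpG was it higher in B cells by 20 points. In *Cd79a*, 44 of 45 CpGs were higher in T cells by at least 20 points, and in *Ms4a1* 13 of 14. In *Ms4a1*, the 11 CpGs from 934 bases before to 89 bases after the TSS were at 8.7% or less in B cells. The next, at 665, 744 and 793 bases, were at 54.8%, 97.7% and 71.1%. No CpG lies between 89 and 665 bases, so where the level rises could not be seen. The rise was local, since from 1000 to 1499 bases after the TSS pooled levels were 18.2% in B and 88.5% in T cells. In *Cd22*, CpGs from 85 bases before to 88 bases after the TSS were under 10% in both cell types except 1, at 21 bases, which was at 2.0% in B and 40.3% in T cells. The widest gap at *Cd22* lay 754 bases after the TSS, at 0% in B and 96.2% in T cells. *Cr2* had 2 CpGs of 24 with a gap of at least 20 points, 278 bases before and 598 bases after the TSS, where B and T cells were at 4.26% and 35.7%, and at 53.5% and 82.0%. In *Cd72* the widest gap was 389 bases upstream, at 21.2% in B and 92% in T cells, while 27 of its 43 CpGs were at 20% or less in T cells too.

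**Figure D3:**
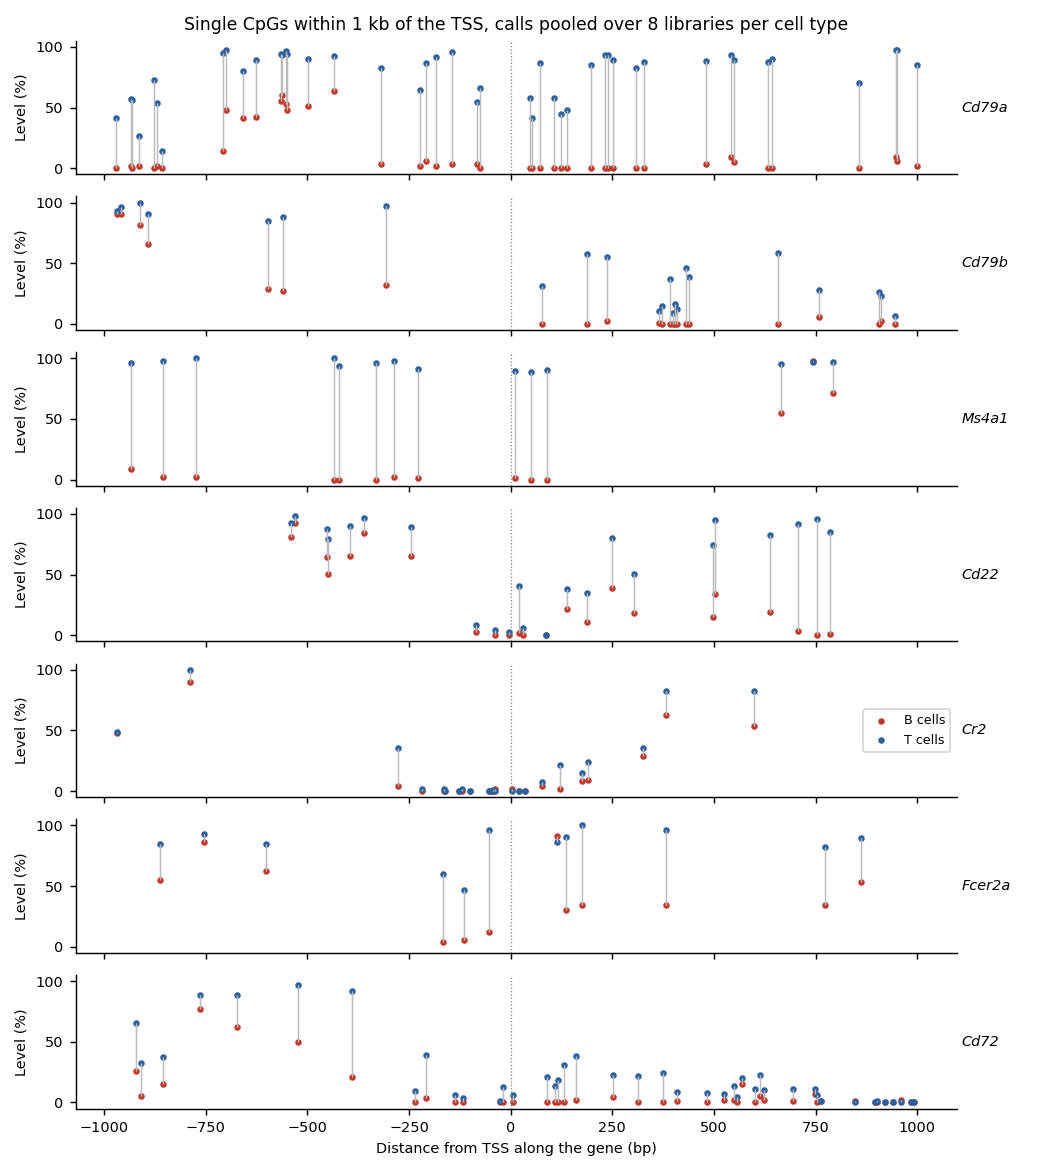
Methylation level (vertical axis, %) of each CpG by its distance from the TSS along the gene (horizontal axis, bases), with the calls of 8 libraries pooled for B (red) and T cells (blue) and a grey line joining the values of 1 CpG. In *Ms4a1* and *Cd79a* nearly all CpGs are apart, in *Cd79b* and *Cd72* T cells are only partly methylated around the TSS, and in *Cr2* the CpGs just before and at the TSS lie near 0% in both.

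The second comparison laid 500-base tiles from 5 kb upstream of each TSS to the end of the gene. The 7 genes held 273 tiles, of which 130 had enough CpGs and calls to be tested. B cells were lower at 31 of these, or 23.8%, and higher at none. Over 1283810 tiles of all protein-coding genes, 1.35% were called lower in B cells and 2.54% higher. At 30 of the 31 tiles the libraries of the groups did not overlap. These tiles were called on a gap between the same libraries, so this count adds no separate support. No share over all tiles was set beside it. Another 72 of the tested tiles were at 80% or more in both cell types and 8 at 20% or less in both. Called tiles lay near the TSS: of tiles starting between 1000 bases before and 2500 bases after it, a window chosen after the tiles were seen, 25 of 38 were called, against 1.21% of such tiles in all genes. Elsewhere 6 of 92 were called, against 1.37%.

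*Cd79a* had the longest run, 8 neighbouring tiles over 4 kb from 1000 bases before to 2999 bases after the TSS, reaching from the upstream sequence through exons 1 to 3. All of its called tiles lay in this run, and 5 other tiles were tested. The tile at the TSS, which holds exon 1 and the start of intron 1, was between 0 and 2.04% in B cell libraries and between 48.7% and 80.8% in T cell libraries (adjusted p = 3.58e-08). The next tile, wholly in intron 1, had the widest gap, with 3.67% ± 2.29 in B and 89.5% ± 4.37 in T cells (SD, n = 8, adjusted p = 1.49e-08). The first tile of the run had the widest range in B cells, between 5.0% and 40.7% in B and between 56.0% and 81.0% in T cells. At the last tile, in intron 3, levels were 19.4% ± 10.9 in B and 80% ± 10.8 in T cells (SD, n = 8). The only tested tile under 20% in both cell types lay 5000 bases upstream. The tile over exon 4, 3500 bases after the TSS, was intermediate in both, at 28.5% ± 10.4 in B and 30.8% ± 8.83 in T cells (SD, n = 8).

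*Cd79b* had 9 called tiles of 14, 6 of them in a run of 3 kb from the TSS to exon 6. At the TSS tile B cell libraries were between 0 and 1.05% and T cell libraries between 20.9% and 39.9% (adjusted p = 9.73e-08). Farther along the gene both levels were higher. The level was 28.6% ± 8.57 in B and 72.1% ± 6.05 in T cells at 1000 bases, and 50.5% ± 17.1 (n = 7) and 97.4% ± 3.4 at 2500 bases (SD, n = 8 otherwise), the last tile having the widest gap, −47.2 points (adjusted p = 0.000235). A pair of tiles 5000 and 4500 bases upstream, within the neighbouring sodium channel gene *Scn4a*, was also called. At the farther tile the level was 33.9% ± 11.5 in B and 54.5% ± 8.21 in T cells (SD, n = 8, adjusted p = 0.0155), and the libraries overlapped. The lowest T cell level among tested tiles of *Cd79b* was 3500 bases upstream, at 10.4% ± 4.16 against 18.6% ± 4.62 in B cells (SD, n = 8), where the adjusted p was 0.0487 and the difference of 8.93 points was under the limit.

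*Ms4a1* had 4 called tiles of 15. The tile just upstream of the TSS had the widest gap of all tiles of the 7 genes, between 0 and 9.52% in B cell libraries and between 92.5% and 97.8% in T cell libraries (−94.6 points, adjusted p = 2.61e-08). At the TSS tile, B cells were at 0.446% ± 1.18 (SD, n = 7) and T cells at 88.8% ± 5.66 (SD, n = 8). Within the long first intron, called tiles followed at 1000 bases, with 17.5% ± 8.21 and 88.7% ± 3.34, and at 4500 bases, with 53.8% ± 11.7 (n = 6) and 89.3% ± 7.0 (SD, n = 8 otherwise). At 80% or more in both cell types were 10 tested tiles, 9 of them farther along the gene and 1 upstream, at 3500 bases. The antisense gene *4930526L06Rik* spans these tiles, and calls combined over both strands cannot be assigned to either gene.

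*Cd22* had 6 called tiles of 30, 5 in a run from the TSS to 2499 bases. The other, 1500 bases upstream, was at 53.0% ± 9.61 in B and 90.7% ± 5.2 in T cells (SD, n = 8). The lowest B cell level of the gene lay not at the start of the gene record but in the tile at 1000 bases, which holds the first exon of the longest principal transcript: there 6 informative B cell libraries were between 0 and 3.12% and T cell libraries between 56.4% and 80.4% (adjusted p = 1.11e-06). The neighbouring tile at 500 bases had the widest gap, 10.4% ± 5.92 against 90.0% ± 2.75 (SD, n = 8, adjusted p = 2.16e-08). The run ended in the tile over exons 2 and 3, at 40% ± 13.2 in B and 79.6% ± 6.04 in T cells (SD, n = 8). The lowest T cell level of the gene was at 7000 bases, over exons 5 and 6, where B cells were at 21.9% ± 5.51 and T cells at 14.4% ± 3.99 (SD, n = 8, adjusted p = 0.0715), and 20 of the tested tiles were at 80% or more in both.

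*Fcer2a*, *Cd72* and *Cr2* had few or no called tiles. In *Fcer2a* they were 2 of 17: the TSS tile, at 37.8% ± 12.9 in B (SD, n = 5 informative libraries) and 94.5% ± 4.91 in T cells (SD, n = 6) (adjusted p = 0.00208), and a tile in intron 9, 8 kb after the TSS, between 31.8% and 65.2% in B and between 80.8% and 92.2% in T cell libraries (adjusted p = 5.87e-05). In *Cd72* they were 2 of 22, both upstream: at 3500 bases the level was 42.0% ± 9.76 (SD, n = 6) in B and 64.4% ± 8.43 (SD, n = 7) in T cells, and at 1000 bases 41.6% ± 10.2 (SD, n = 7) and 71% ± 9.81 (SD, n = 8). The tile at the *Cd72* TSS was between 0 and 1.85% in B and between 11.3% and 29.0% in T cell libraries, without overlap (adjusted p = 2.86e-06), and its difference of −18.4 points was under the limit. A tile 3000 bases upstream of *Cd72* was unmethylated in both, at 0.615% ± 0.895 and 2.07% ± 2.2. In *Cr2* none of 19 tested tiles was called. Its tile just upstream of the TSS was at 0.412% ± 0.578 in B and 2.11% ± 1.49 in T cells (SD, n = 8, adjusted p = 0.0681), the TSS tile at 11.7% ± 4.54 and 18.4% ± 4.29 (adjusted p = 0.121), and 15 tiles of the gene body were at 80% or more in both.

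**Figure D4:**
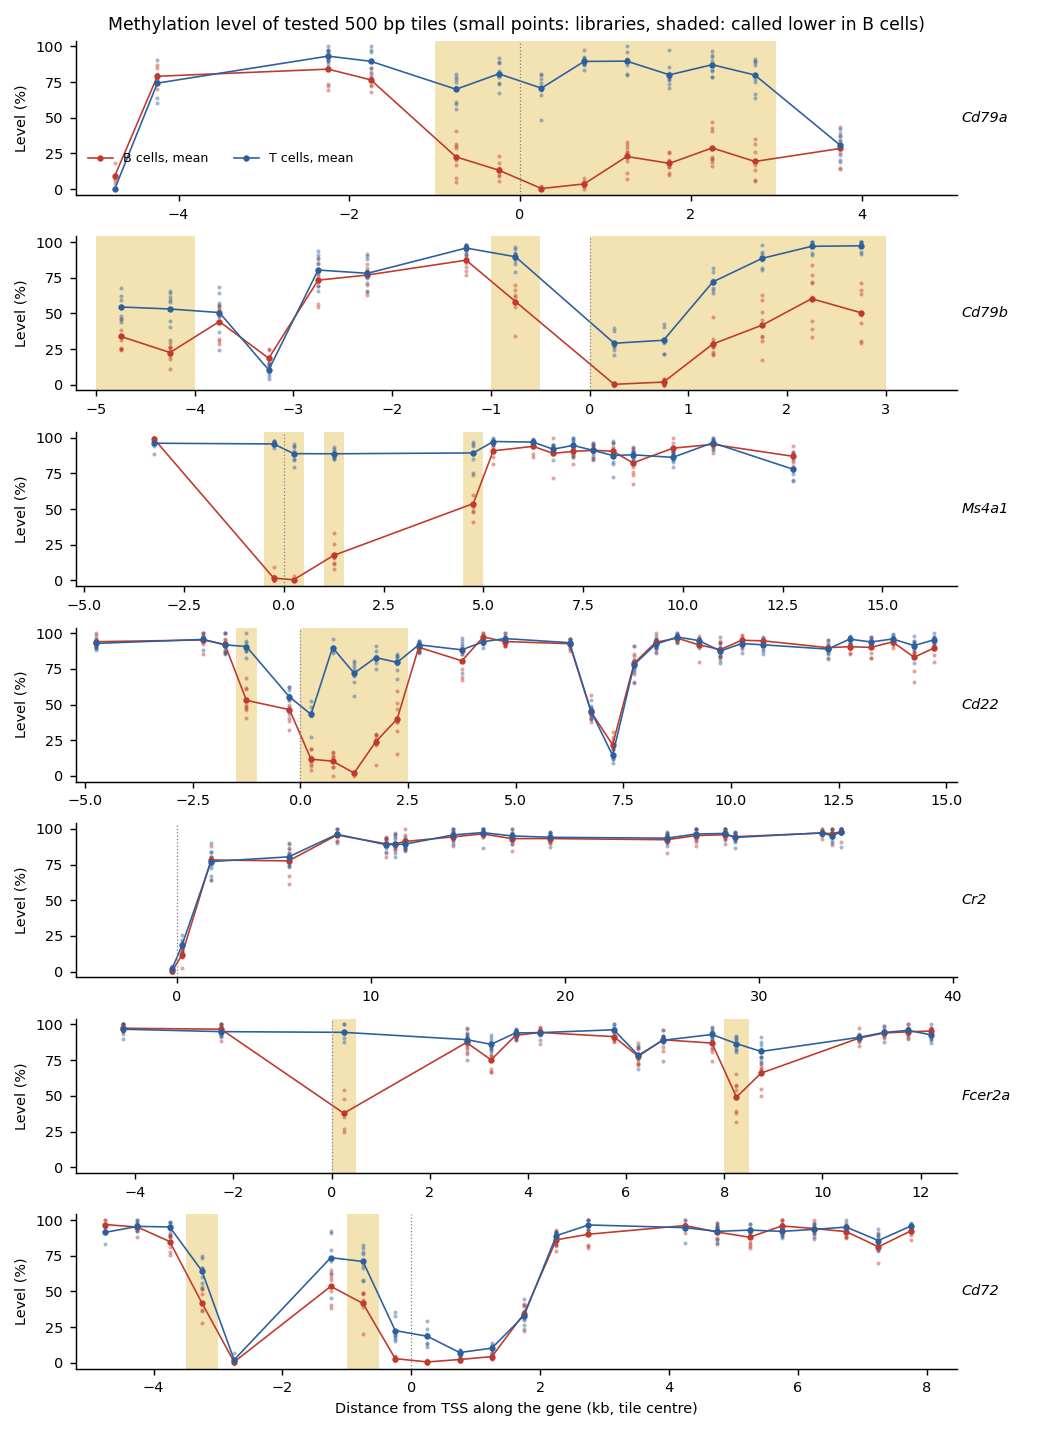
Methylation level (vertical axis, %) of the tested 500-base tiles by distance of the tile centre from the TSS along each gene (horizontal axis, kb), with small points for libraries, lines through the means of B (red) and T cells (blue) that also cross untested stretches, and shading on tiles called lower in B cells. Shading runs over 4 kb in *Cd79a* and 3 kb in *Cd79b*. It marks short stretches in *Ms4a1* and *Fcer2a*, often next to tiles that were not tested. It is absent from *Cr2*, whose lines lie close together, with the T cell line slightly higher at the TSS.

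Many tiles of these genes hold too few CpGs or calls for the test. Of 120 untested tiles with a CpG, 12 had pooled levels more than 30 points apart, 11 of them lower in B cells. These have between 1 and 3 CpGs, were picked after their values were seen and carry no test. In *Ms4a1*, the tile 1000 bases upstream was at 4.41% in B and 97.9% in T cells. Its tiles 1500, 2000, 4000 and 5500 bases after the TSS were at 39.4%, 20.3%, 10.4% and 55.6% in B cells. In T cells these were at 94.8%, 60.6%, 56% and 98.6%. In *Fcer2a*, the tile that ends at the TSS was at 7.05% and 66.5%, below the level of the tested tile at the TSS in both cell types. The single CpG of the tile 2000 bases upstream of *Cr2* was at 3.85% in B and 82.3% in T cells. The only one higher in B cells was the single CpG of the tile 10 kb into *Fcer2a*, at 72.4% and 38.4%.

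Pooled over the whole region from 5 kb upstream to the gene end, the difference was smaller than at the promoter in each of the 7 genes. *Cd79a* and *Cd79b* were called lower in B cells, 2 of the 7 genes, against 0.0372% of 21531 gene regions. *Cd79a* had the lowest difference of all regions, −43.2 points, with levels between 19.3% and 35.4% in B and between 66.1% and 77.6% in T cell libraries (adjusted p = 1.33e-06). *Cd79b* was at −24.2 points, the 4th lowest (adjusted p = 0.000356). By adjusted p alone, *Ms4a1* (−17.5 points), *Cd22* (−6.3 points) and *Fcer2a* (−7.28 points) passed as well, 5 of 7 against 3.53% of all regions. Within a sex or an assay alone, *Cd79b* and *Cd22* did not pass in any of the 4 fits and *Fcer2a* not in 3. The regions of *Cd72* (−4.16 points, adjusted p = 0.0509) and *Cr2* (−1.35 points, adjusted p = 0.316) did not pass, and their libraries overlapped. Over the alternative settings the *Cd72* difference ran from −6.48 to −1.78 points. The regions of these 7 genes are between 8422 bases (*Cd79b*) and 44906 bases (*Cr2*) long.

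BS and oxBS libraries were compared at the same promoters, since their difference reads 5-hydroxymethylcytosine. None of the 7 was called (limit of 10 points), and neither was any other promoter, 0% of 20905. At an unadjusted p under 0.05 there were 2, *Cd79a* and *Cd72*, against 5.87% of all promoters, and limma called none and had none of the 7 at that p. In T cells, *Cd79a* was at 80.7% in BS and 71.7% in oxBS libraries, and *Cd72* at 23.4% and 16.2%. In B cells the corresponding means were 12.9% and 10.4%, and 6.14% and 5.51%. The adjusted p was 0.816 for *Cd79a* and 0.753 for *Cd72*. Between T cell libraries of consecutive numbers, BS was above oxBS in 4 of 4 at both genes. The gap was 2.92 to 12.6 points at *Cd79a* and 4.32 to 10.1 points at *Cd72*, genes picked for their low p. Between B cell libraries of consecutive numbers it ran from −1.79 to 10.3 points at *Cd79a* and from −2.71 to 3.45 points at *Cd72*. At *Fcer2a* it was 3.27 to 8.47 points in B cells and −0.429 to 4.47 points in T cells. T cell BS libraries were also higher over all calls, with 79.5% to 79.7% methylated against 78.5% to 78.9% in oxBS libraries. B cell libraries did not show this, with overlapping ranges of 79.5% to 80.8% in BS and 79.9% to 81.5% in oxBS libraries. With consecutive numbers as a block, the adjusted p was 0.969 for *Cd79a* and for *Cd72*. None of the 7 differed between male and female libraries by the same rule, against 2.21% of all promoters, and none had an unadjusted p under 0.05 in either tool. The cell type difference was not found to depend on sex or on assay at any of the 7: in both interaction tests none had an adjusted or an unadjusted p under 0.05, in this model or in limma. Of all promoters, 3.34% had an unadjusted p under 0.05 in the interaction with sex and 10.3% in that with assay, 0% were called in either, and limma called 2 and 1. Within each sex and each assay alone, with 4 libraries against 4, all 7 differences kept their direction, and between 2 and 4 genes were called. Of all promoters, between 33 and 48 were called lower in B cells in these fits.

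A list of 15 other genes of B cell receptor signalling gave a background from the same pathway. At promoters 3 of them were called lower in B cells and none higher, against 0.402% and 0.694% of all promoters, and the median difference of the list was −1.82 points, against 0.522 points over all promoters. The 3 were the kinases *Blk* (−32.4 points) and *Btk* (−26.4 points, X-linked, with overlapping libraries) and the adaptor *Blnk* (−45.5 points). The other 12 included proximal signalling genes with promoters low in both cell types, such as the kinase gene *Syk*, at 0.624% ± 0.407 in B and 2.43% ± 0.626 in T cells, and the phospholipase gene *Plcg2*, at 1.85% ± 0.894 and 1.72% ± 0.509 (SD, n = 8). Of its tested tiles, 187 of 2171 were called lower in B cells and 50 higher, against 1.35% and 2.54% of the tiles of all genes. A list of 8 genes of the T cell receptor and its co-receptors went the other way, with 7 promoters called higher in B cells and none lower, against 0.694% and 0.402% of all promoters, and a median difference of 70.8 points. Among them, the CD3 chain genes *Cd3d* and *Cd3e* were at 94.3% ± 1.53 and 86.5% ± 1.5 in B and at 4.66% ± 3.06 and 2.63% ± 1.34 in T cells (SD, n = 8).

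The promoters most like each gene were those with the smallest root mean square difference in level over the 16 libraries, among 20425 promoters with a level in all. For *Cd79a* these were *Igll1* (7.44 points) and *Gm5431* (9.64 points), and for *Cd79b* *Cd180* (5.55 points) and *Dok3* (5.97 points). *Fcrla* (6.94 points) and *Igll1* (8.51 points) were nearest to *Ms4a1*, *Ncf4* (7.77 points) and *Spib* (8.19 points) to *Cd22*, and *Fcmr* (4.9 points) and *Nup160* (7.57 points) to *Fcer2a*. *Pax5* (3.17 points) and *Tmem26* (3.52 points) were nearest to *Cd72*, and *Car4* (2.05 points) and *Fgf8* (2.09 points) to *Cr2*.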

How the data were processed

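Methylation at single CpGs was measured in 16 WGBS libraries, 8 of B and 8 of T cells. The authors trimmed reads with Trim Galore 0.6.0, mapped them to mm10 with Bismark v0.20.0, used SAMtools 1.3.1, and kept alignments with a MAPQ of 10 or more. What they deposited are counts of unmethylated and methylated calls at every covered CpG, summed over both strands and not normalised. The 2 male BS libraries of B cells list no contigs. Positions that were not CpGs of the reference (between 44938 and 61854 per library) and contigs were left out here. Libraries then held between 123323834 and 170619848 calls in B and between 154137941 and 169620408 in T cells. Calls are not independent molecules where CpGs share a read, so levels carry more than counting error, which the spread between libraries covers.

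Calls were pooled over the TSS ± 1 kb, 500-base tiles and the region from 5 kb upstream to the gene end of every protein-coding gene (GENCODE vM21). Regions needed at least 3 CpGs and at least 5 libraries per cell type (at least 3 of 4 within a sex or assay) with at least 20 calls. A quasi-binomial logistic model with cell type, sex and assay was tested by a deviance F test, with a Pearson dispersion of at least 1, and p-values were adjusted over all regions by the Benjamini-Hochberg method. A call needed both an adjusted p below 0.05 and pooled levels that differed by 20 points or more, or 10 points between assays or sexes, and interactions by adjusted p alone. The study did not separate assays; here assay was a covariate. The model was tested on simulated data at the real depths, with libraries drawn as independent. In regions of intermediate level, changes of 20 points were recovered at 22.5% of promoters and 25.5% of tiles. Changes of 30 points were recovered at 96.9% and 50.9%, so a region that was not called can still hold such a difference. Tiles were annotated by the longest APPRIS principal transcript. Named tiles were, per gene, the called tile of the largest difference, the first and last called, and those of the lowest B and T cell level, and other tiles are named as chosen after their values were seen or as the tile at the TSS. The members and gene lists were chosen with earlier results of these data known. A gene of the lists and a sequence are not reported here.

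Sequences came from the GRCm38.p6 reference (RefSeq). Alternatives covered the limits on calls, CpGs and differences, the covariates, limma 3.58.1, the window, tile and TSS definitions, each sex and assay alone, each library left out, and libraries of consecutive numbers summed or as a block. Fits and plots were made in Python 3.11.15 (NumPy 2.4.6, pandas 2.3.3, SciPy 1.17.1, Matplotlib 3.10.9).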

Additional observations from a re-analysis of the deposited data

How the results depend on the processing

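B and T cells could not be paired, since the labels number the libraries from 1 to 16 and the groups share no number. Consecutive numbers each hold a BS and an oxBS library of the same sex and cell type, which the labels do not call a pair. Deviations of such libraries from their group means had correlations between 0.0205 and 0.0562 over 20426 promoters, which are not independent. Counting error at this depth lowers such correlations, so they do not decide whether these libraries share DNA. At the 7 promoters, B cell libraries of consecutive numbers had similar means. They were 20.7% and 20.3% (1 and 2), 12.7% and 15.3% (3 and 4), 19.8% and 22.3% (9 and 10), and 12.9% and 13.7% (11 and 12). With their calls summed, 4 against 4, an alternative chosen after seeing the data, 5 promoters, 2 gene regions and 31 of 167 tiles were called. As a replicate block in the comparison of BS and oxBS libraries they gave 0 calls and left *Cd79a* and *Cd72* the 2 at an unadjusted p under 0.05, against 4.83% of all promoters. No result for the 7 genes reversed under any alternative. With each library left out in turn, 5 promoters and 2 gene regions were called each time and the called tiles, 31 in all, were between 28 and 32. Without both male BS libraries of B cells, an alternative chosen after seeing the data, they were 5, 2 and 28. With 4 libraries against 4, fewer passed: 3 promoters, 1 region and 18 tiles with BS libraries alone, 4 promoters, 1 region and 16 tiles with oxBS libraries alone, 2 promoters, 1 region and 16 tiles with male libraries alone, and 3 promoters, 1 region and 16 tiles with female libraries alone. Of all promoters tested, 43 of 20820 were called lower in B cells with BS libraries alone and 48 of 20855 with oxBS libraries alone. With male libraries alone 33 of 20820 were called lower and with female libraries alone 38 of 20870, against 84 of 20905 with all libraries. The fits of 4 against 4 use fewer libraries, and no difference changed sign. The TSS tile of *Fcer2a*, with 5 informative B cell libraries, could not be tested without any 1 of them. A minimum of 40 calls left 69 tiles to test and 14 called. At a limit of 30 points 1 region was called, *Cd79a*, and the *Cd79b* promoter (−29.8 points) was not. With 4 libraries against 4, that promoter was also lost with oxBS (adjusted p = 0.0695), male (0.0825) or female libraries alone (0.0915), at −28.8 to −30.9 points. *Cd22* was lost with BS (adjusted p = 0.135), male (0.133) or female libraries alone (0.0585), at −33.7 to −37.9 points, and *Fcer2a* with BS (0.0577) or male libraries alone (0.082), at −42.2 and −44.8 points. By adjusted p alone, in these fits *Cd72* did not pass with oxBS (0.0816), male (0.0849) or female libraries (0.0678) and *Cr2* was between 0.178 and 0.457. At gene regions *Cd79b* was between 0.051 and 0.119, *Cd22* between 0.0509 and 0.114, and *Fcer2a* at 0.14 with BS, 0.108 with male and 0.082 with female libraries. The *Cd72* region passed by adjusted p without library 2 (0.0404), without library 14 (0.0306), without the sex and assay terms (0.0491) and in limma (0.0407). The TSS ± 500 bp took *Cd22* under the limit, and a limit of 10 points added *Cd72*. No alternative called any of the 7 between assays or sexes or in an interaction. At a median of 6.89 calls per CpG in B cells, tiles with under 3 CpGs, or with too few calls, were not tested, which leaves out most tiles of *Cr2* and many upstream of *Fcer2a* and *Ms4a1*.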
